A study of Caenorhabditis elegans with 2 samples.

Results

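The nuclear tRNA genes of the nematode Caenorhabditis elegans were examined for occupancy by ZTF-4, a zinc finger protein. All nuclear genes of biotype tRNA in the Ensembl annotation (release 115) of assembly WBcel235 were taken, 612 of 46890 annotated nuclear genes, and the 22 mitochondrial tRNA genes were left out. A gene was counted as occupied when the summit of a ChIP-seq peak, its point of highest signal, lay inside the gene or within 200 bp of either end. By that rule 50 of the 612 genes were occupied in the authors' thresholded list of peaks.

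Chromatin immunoprecipitation with sequencing (ChIP-seq) recovers the DNA that is bound to a chosen protein. The material was whole L1 larvae, both sexes pooled, of strain OP322, whose genotype is unc-119(ed3) III with the transgene wgIs322, an insertion that carries eGFP-tagged ztf-4. There was 1 group of 2 biological replicates and no second condition, so the results describe where the tagged protein was recovered and not a change. The antibody field names ztf-4, with the antibody itself and the extraction protocol not given in the sources used here, and the control that entered peak calling was not analysed here. Both replicates carry the tagged protein, from an inserted transgene, and any difference from the untagged protein was not measured.

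Transfer RNA genes are short and are transcribed by RNA polymerase III. Their promoter lies inside the gene, in 2 stretches called the A box and the B box, which are read by the factor TFIIIC, and transcription stops at a run of T just after the gene. In C. elegans they are scattered over the genome, many in several identical copies and many within the introns of protein-coding genes. The 612 genes had a median length of 72 bp (64 to 122) and comprised 200 distinct sequences, of which 143 occurred at 1 locus and the largest family had 29 copies.

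The sequences below were chosen because the results turn on them. They are from the RefSeq sequence of WBcel235 and run 5′ to 3′. In the 6 genes, printed on the strand of the gene, capitals mark matches to the letters TNGNNNAGT (A box) and GTTCGANNC (B box), where N is any base. ZK899.t1 (tRNA-Pro, X:9467729-9467800) stands for the family with the most occupied copies, and C16C8.t2 (tRNA-Thr, II:3439219-3439290) for a family of 15 with none in the thresholded list. Y97E10C.t1 (tRNA-Thr, V:7730654-7730725) is a sequence with 1 locus that held a summit inside the gene. F34H10.t1 (tRNA-Ala, X:9637852-9637923) was occupied on its 5′ side, and C18A11.t2 (tRNA-Arg, X:8036685-8036757) on its 3′ side. K11H12.t1 (IV:658181-658266) is the one annotated tRNA for selenocysteine.
ZK899.t1: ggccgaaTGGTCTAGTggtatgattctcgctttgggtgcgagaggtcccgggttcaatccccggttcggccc
C16C8.t2: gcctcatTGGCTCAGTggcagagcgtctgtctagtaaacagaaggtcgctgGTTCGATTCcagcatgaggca
Y97E10C.t1: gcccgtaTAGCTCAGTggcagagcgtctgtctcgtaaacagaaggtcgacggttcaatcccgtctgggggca
F34H10.t1: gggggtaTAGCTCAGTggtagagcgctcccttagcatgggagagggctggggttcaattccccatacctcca
C18A11.t2: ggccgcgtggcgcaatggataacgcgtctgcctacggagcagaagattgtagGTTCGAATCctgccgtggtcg
K11H12.t1: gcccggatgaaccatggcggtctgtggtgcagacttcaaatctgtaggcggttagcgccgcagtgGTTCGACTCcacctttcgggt

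The other 2 are regions on the plus strand, with tRNA genes in capitals, and show summits on the 5′ side at a shorter and at a longer distance. III:11066848-11067098 holds the divergent tRNA-Pro genes W09D6.t2 and W09D6.t1 in an intron of rsa-2, and its summit is base 117, between the genes. X:410163-410462 holds R04A9.t1 (tRNA-Gln), the tRNA gene with the highest peak, and its summit is base 44, 185 bp from the gene and so near the limit of 200 bp.
W09D6.t2 and W09D6.t1: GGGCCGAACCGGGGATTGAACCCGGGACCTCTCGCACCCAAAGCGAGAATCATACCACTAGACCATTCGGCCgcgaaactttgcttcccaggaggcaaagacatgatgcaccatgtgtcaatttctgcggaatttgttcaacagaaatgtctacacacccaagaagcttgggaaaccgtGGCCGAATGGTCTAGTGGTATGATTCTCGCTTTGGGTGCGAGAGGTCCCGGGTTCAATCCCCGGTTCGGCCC
R04A9.t1: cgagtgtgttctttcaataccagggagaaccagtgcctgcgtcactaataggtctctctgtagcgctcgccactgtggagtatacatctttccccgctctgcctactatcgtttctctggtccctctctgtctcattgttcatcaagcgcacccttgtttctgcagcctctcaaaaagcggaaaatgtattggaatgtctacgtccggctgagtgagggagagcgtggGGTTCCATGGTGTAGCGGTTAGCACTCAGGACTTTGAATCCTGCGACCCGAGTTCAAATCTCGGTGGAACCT

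The tRNA genes were occupied more often than windows of the genome at large. The authors deposited relaxed lists of regions for replicate 1 (27643), replicate 2 (27140) and the pooled replicates (23044). They also deposited 1898 peaks from an irreproducible discovery rate (IDR) threshold, which rests on how alike regions rank in the replicates. Single peaks of this IDR list need not rank alike: C02B4.t1 held rank 1129 in replicate 1 and 10885 in replicate 2. At C37A2.t1 and T22A3.t1 the peak had the same rank in the pooled and IDR lists, 667 and 866. The 50 occupied genes in the IDR list are 8.17% of all tRNA genes (exact 95% interval 6.12 to 10.6). The background, the share of genome windows of 472 bp (a gene of median length with 200 bp on each side) that held an IDR summit, was 0.884%. With the 1898 strongest regions of replicate 1 alone, 53 genes were occupied (8.66%, 6.55 to 11.2, background 0.885%). The same number of strongest regions of replicate 2 occupied 52 genes (8.50%, 6.41 to 10.99, background 0.886%). In the pooled relaxed list 280 genes were occupied (45.8%, 41.8 to 49.8), against 10.5% of windows. Peak lists carry no read counts and the depth is unknown, so these intervals cover counting error only. They also treat genes as independent, although neighbours shared peaks.

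Among the other short non-coding genes, snoRNA genes, which guide RNA modification, were occupied in the IDR list at 56 of 346 loci (16.2%, 12.5 to 20.5), and snRNA genes of the splicing machinery at 14 of 129 (10.9%, 6.06 to 17.5). For miRNA genes, which encode small regulators of mRNA, the count was 8 of 261 (3.07%, 1.33 to 5.95). In the pooled list tRNA genes had a share of 45.8%, against 40.5% for snoRNA, 27.1% for snRNA and 20.7% for miRNA genes. Median gene lengths were 130 bp for snoRNA, 109 bp for snRNA and 95 bp for miRNA genes, so their windows were somewhat wider than those of tRNA genes. The intervals of tRNA and snoRNA genes did not overlap in the IDR list and did in the pooled list (35.2 to 45.8 for snoRNA genes).

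Occupancy was concentrated close to the genes. An IDR summit lay within 25 bp of 14 genes, within 50 bp of 33, within 100 bp of 43 and within 200 bp of 50. Widening the window to 500 bp added 4 genes (54), and within 1000 bp there were 64. The members just inside the limit were C16B8.t3 at 190 bp (signal 66.5), R04A9.t1 at 185 bp (139.6) and F10C1.t1 at 139 bp (53.8). Just outside were F58D5.t1 at 202 bp (54.5), ZK970.t1 at 302 bp (80.3) and C16B8.t1 at 448 bp (66.5).

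**Figure D1:**
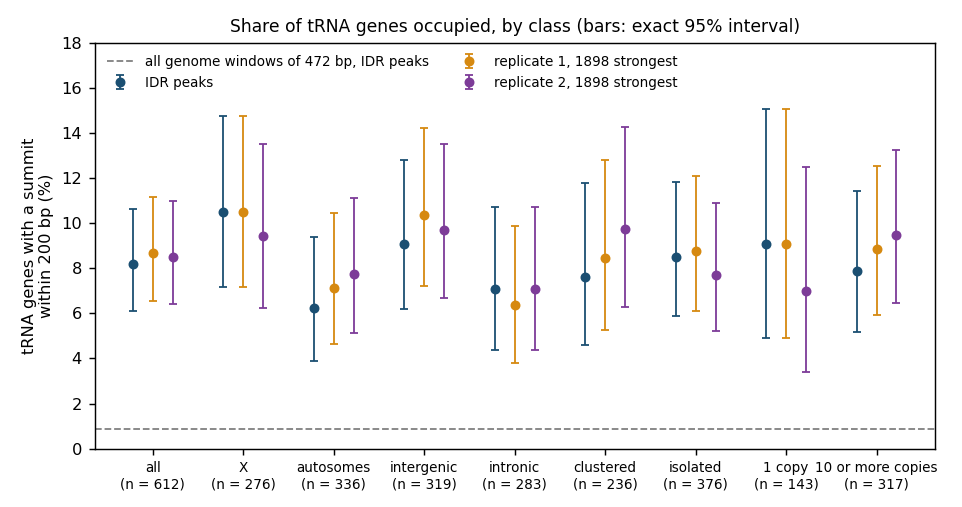
Share of tRNA genes with a summit within 200 bp (vertical axis, percent) for all genes and by class (horizontal axis, with the number of genes), in the IDR peaks and in the 1898 strongest regions of each replicate. Points are shares, bars exact 95% intervals and the dashed line the 0.884% of genome windows with an IDR summit, which lies below every interval drawn.

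The summits lay mostly on the 5′ side of the genes. Of the 50 occupied genes, 35 (70%, 55.4 to 82.1) had the summit upstream of the first base, 9 (18%) inside the gene and 6 (12%) downstream of the last base. Of the 472 bp of a window around a gene of median length, 72 bp are the gene and 200 bp lie on each side. Summits placed evenly over it would fall upstream and downstream equally often, and less often inside. The inside share was not tested against such a placement. The median position was −35.5 bp from the first base, on the strand of the gene. Among the 35 upstream summits the median distance was 45 bp (14 to 190), and 18 lay between 26 and 50 bp. The inside share was 22.6% with the strongest regions of replicate 1 and 9.62% with those of replicate 2. In the strongest regions of replicate 1 the upstream share was 66.0% (51.7 to 78.5) and in those of replicate 2 it was 76.9% (63.2 to 87.5). Among genes with no other tRNA gene within 1000 bp it was 22 of 32 (68.75%, 49.99 to 83.9). On X the count was 22 of 29 and on autosomes 13 of 21. In intergenic genes it was 19 of 29 and in intronic genes 15 of 20. Among the 13 occupied genes whose sequence has 1 locus, the upstream share was 53.8% (25.1 to 80.8).

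In the pooled relaxed list the excess of the 5′ side over the 3′ side was smaller. Of 280 genes, 131 had the nearest summit upstream (46.8%, 40.8 to 52.8), 93 inside and 56 downstream, with a median position of 13.5 bp. In 4 groups of equal size by pooled signal, from the lowest to the highest, the upstream share was 35.7%, 40%, 47.1% and 64.3%, over 70 genes each. Below the IDR limit of the pooled signal, 98 of 232 genes had an upstream summit (42.2%, 35.8 to 48.9), and above it 33 of 48 (68.75%, 53.7 to 81.3). The upstream share was higher in each group than in the one before. Signal moved with position here, and its part in the difference between the lists was not tested.

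**Figure D2:**
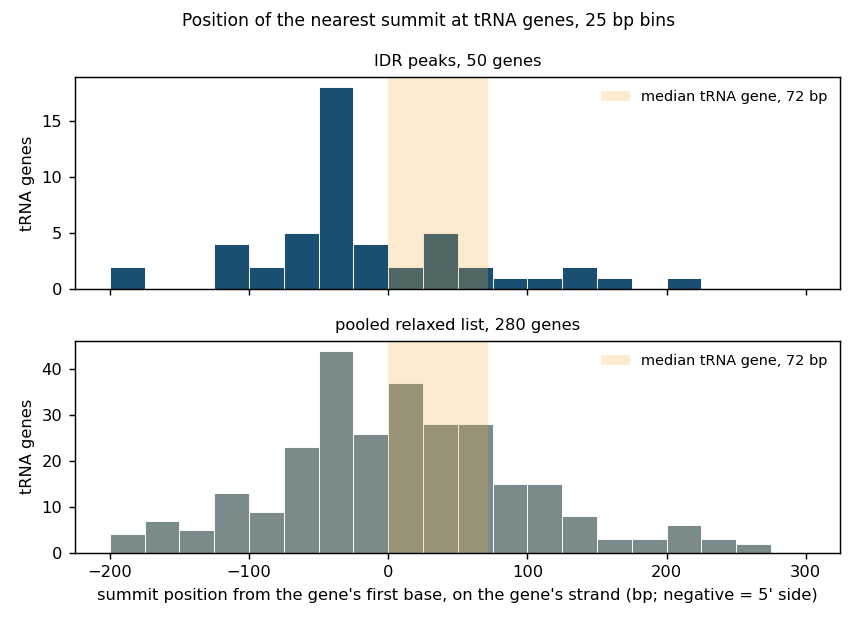
Position of the nearest summit from the first base of the tRNA gene, on its strand (horizontal axis, bp, negative on the 5′ side), as numbers of genes in bins of 25 bp, for the 50 genes of the IDR list (top) and the 280 of the pooled relaxed list (bottom). Shading marks the span of a gene of median length, 72 bp, and the highest bin of the IDR list is the one just over 25 bp upstream, with 18 genes.

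In 9 genes the IDR summit lay within the gene, the stretch that also holds its promoter. Of these, rte-1 (tRNA-Glu, signal 81.1) has its peak in the promoter window of C04C11.25. The 8 that lay outside the promoter windows of protein-coding genes (1000 bp upstream to 200 bp downstream of the 5′ end) were F15G9.t1 (tRNA-Ala, signal 109), Y97E10C.t1 (tRNA-Thr, 97.4), R04D3.t2 (tRNA-Val, 80.4), F33G12.t1 (tRNA-Ile, 70.6), K04C2.t3 (tRNA-Lys, 64.5), ZK899.t1 (tRNA-Pro, 62.4), K06A4.t1 (tRNA-Ala, 58.3) and B0350.t1 (tRNA-Lys, 52.4). For Y97E10C.t1, whose sequence is printed above, the summits of both replicates also fell in the gene, with signals of 45.0 in replicate 1 and 50.9 in replicate 2. For F15G9.t1, R04D3.t2 and K06A4.t1 the replicate 1 summit lay in the gene and the replicate 2 summit 22, 27 and 21 bp outside it. In these 3 genes the replicates placed the summit on different sides of a gene end. A read that lies wholly inside a gene cannot be assigned among identical copies. B0350.t1, ZK899.t1, rte-1, K04C2.t3, F15G9.t1 and R04D3.t2 belong to families of 25, 24, 20, 14, 8 and 2 copies.

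The letters of the internal promoter were common to most members, occupied or not. The A box letters TNGNNNAGT, a loose form chosen after a stricter one matched few genes, were found on the gene's strand in 385 genes (62.9%), against 5.75% of genome windows of 72 bp. The B box letters GTTCGANNC were found in 441 genes (72.1%), against 0.260% of such windows, and TTTT in the 30 bp after the gene in 605 (98.9%), against 36.1% of windows of 30 bp. Genes with the A box letters were occupied at 34 of 385 and those without at 16 of 227 (8.83% and 7.05%). With the B box letters the count was 34 of 441 and without them 16 of 171 (7.71% and 9.36%). The intervals of each pair of shares overlapped. Of the 7 genes without the downstream TTTT, only W09G10.t3 was occupied. The B box letters were searched for in this form only, so a gene without a match need not lack a B box. ZK899.t1, Y97E10C.t1 and F34H10.t1, printed above, read GTTCAA where the letters have GTTCGA. The matches are a description of letters and say nothing of which factor was present.

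The peaks at tRNA genes were of ordinary height. The 50 genes were served by 43 distinct IDR peaks, 7 of which held a pair of genes, and these made up 2.27% of the IDR list. The signal, the caller's own height of a region, ran from 49.8 to 139.6 with a median of 71.5, against a median of 72.3 for the other 1855 IDR peaks. The best rank of a tRNA peak was 253, 11 of the 43 ranked in the top 500 and the median percentile was 48.8. In the strongest regions of replicate 1 the median percentile was 45.3, and in those of replicate 2 it was 41.7. All but 1 of the 43 had the common width of 350 bp. In the pooled relaxed list the regions at tRNA genes stood higher, with a median signal of 27.9 against 19.96 for all regions, and 42 of 257 (16.3%) passed the IDR limit against 8.24% of all pooled regions. Of the 43 peaks, 8 (18.6%, 8.39 to 33.4), holding 9 of the 50 genes, lay in such a promoter window, against 928 of the other 1855 IDR peaks (50.03%, 47.7 to 52.3). Of all tRNA genes, 112 (18.3%, 15.3 to 21.6) had their midpoint in one.

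The strongest tRNA peaks lay on X. The 10 highest, ranks 253 to 449 of the IDR list and holding 14 genes, were all X-linked, and of the remaining 33 there were 14 on X. In the strongest regions of replicate 1 the top 10 included 8 on X, and in those of replicate 2 all 10. The 24 X-linked tRNA peaks had a median signal of 80.7 (49.8 to 139.6) and the other X-linked IDR peaks one of 73.3. The replicates differed here. In the strongest regions of replicate 1 the median percentile was 47.7 for X-linked tRNA peaks and 48.2 for other X-linked regions. In those of replicate 2 it was 74.5 and 51.1, so the excess over other X-linked regions was seen in replicate 2 only. On autosomes the median IDR signal was 70.6 for 19 tRNA peaks (50.3 to 100.3) and 72.3 for the others. The ranges of X and autosomes overlapped over most of their length. Peaks are not replicates, so no test was made of this difference.

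**Figure D3:**
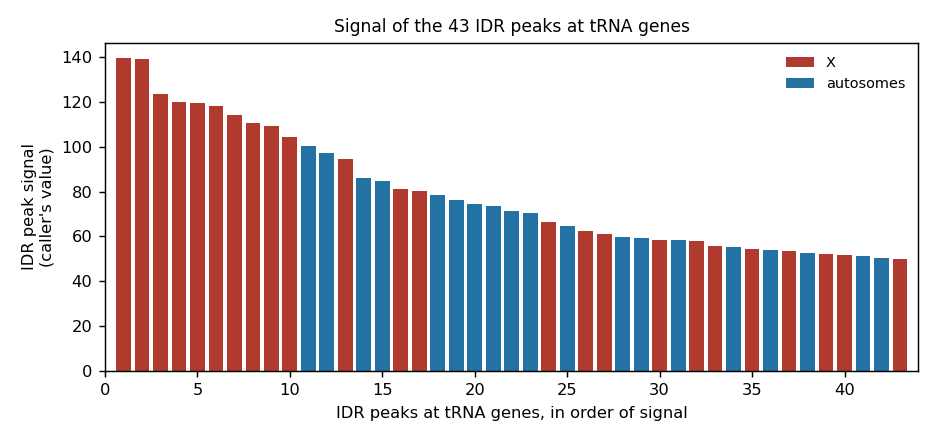
Signal of the 43 IDR peaks at tRNA genes (vertical axis, the caller's value), in order of signal (horizontal axis), coloured by X or autosomes. The first 10 bars, from 139.6 down to 104, are X-linked, and the highest autosomal bar is 100.3.

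The highest tRNA peak, at R04A9.t1, carried a signal of 78.2 in replicate 1, 61.9 in replicate 2 and 139.6 in the IDR list. This tRNA-Gln gene lies in an intron of ZK1193.2 on the opposite strand. The peak covers X:410031-410380, 185 bp from summit to gene, and does not reach the gene. At C28G1.t1 (tRNA-Glu, X:8835829-8836178) the signals were 65.0, 72.1 and 139, in the same order. That gene overlaps an exon of C28G1.2, and its peak lies in the promoter windows of C28G1.2 and of sec-15, which encodes a subunit of the exocyst. Both peaks stood in the strongest regions of both replicates.

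Several of the next peaks were shared by neighbouring tRNA genes. The peak shared by M02F4.t1 (tRNA-Gly) and M02F4.t2 (tRNA-Glu), at X:3035944-3036293, had signals of 71.4 in replicate 1, 51.7 in replicate 2 and 124 in the IDR list. That shared by the tRNA-Pro genes F46G11.t1 and F46G11.t2 had 55.7, 66.5 and 119.8. The tRNA-Ser genes C53C7.t1 and C53C7.t2 shared one of 45.6, 55.8 and 104. The tRNA-Ala genes F15G9.t1 and F15G9.t2, in an intron of the hemicentin gene him-4, shared one of 54.8, 52.8 and 109. The first 3 of these pairs are transcribed away from each other and the last in the same direction. The IDR summit lay between the genes in the first 3 pairs and within F15G9.t1 in the last.

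The other X-linked peaks among the highest served 1 gene each. F41D9.t3 (tRNA-Asn), in an intron of the sulfate permease family gene sulp-3, had 59.7, 61.8 and 120.01 in replicate 1, replicate 2 and the IDR list. C33G3.t2 (tRNA-Lys) had 51.7, 64.4 and 118. R11.t1 (tRNA-Tyr) had 40.4, 67.5 and 111, and so ranked 845 in replicate 1 and 283 in replicate 2. C18A11.t2 (tRNA-Arg) had 50.5, 61.0 and 114 in a peak only 88 bp wide (X:8036551-8036638). This peak does not reach the gene. It begins just after another IDR peak, X:8036294-8036540, of signal 462, and the part of that higher peak in the signal at C18A11.t2 was not tested. The highest autosomal tRNA peak, at T03E6.t1 (tRNA-Gln, on V, in the promoter window of srh-269), had 56.0, 50.3 and 100.3.

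All of the 22 highest tRNA peaks stood among the strongest regions of both replicates. Of the 43 IDR peaks, 41 had a region with its summit within 100 bp in both relaxed lists, 26 were among the strongest regions of both replicates and 2 among those of neither. Across the 41 Spearman's rho between the signals was 0.656 and Pearson's r of their log2 values 0.569, as a description over peaks that come from the same libraries. The ratio of replicate 1 to replicate 2 ran from 0.50 to 3.02 with a median of 0.967. The widest ratio was at C02B4.t1 (tRNA-Ile), with 34.9 in replicate 1 and 11.6 in replicate 2. The weakest peak, at C04A11.t1 (tRNA-Leu, 49.8), and the one at F44A2.t1 (tRNA-Ala, 51.5) had no such region in replicate 2.

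Counted by gene, 33 were occupied in the strongest regions of both replicates, 20 only in those of replicate 1 and 19 only in those of replicate 2. All 33 were also in the IDR list. W03G11.t1 (tRNA-Lys) held a summit 14 bp away among the strongest of replicate 2 (signal 41.6) and not among those of replicate 1. F33G12.t1 (41.3) and ZK899.t1 (34.1) were occupied among the strongest of replicate 1 and not of replicate 2, and the W09D6 pair (36.6) among those of replicate 2 and not of replicate 1. T09B4.t2 (tRNA-Ile) was occupied only in the strongest regions of replicate 1 (36.6) and was not in the IDR list. In the relaxed lists 201 genes were occupied in both replicates, 61 in replicate 1 only, 98 in replicate 2 only and 252 in neither.

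**Figure D4:**
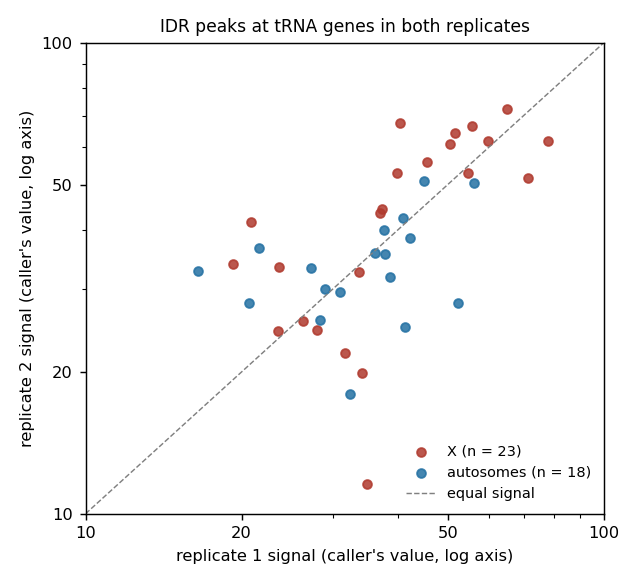
Signal in replicate 1 (horizontal log axis) and replicate 2 (vertical log axis), both the caller's value, of the 41 IDR peaks at tRNA genes with a region in both relaxed lists, 23 on X and 18 on autosomes. The line marks equal signal, and the point farthest below it is C02B4.t1 with 34.9 and 11.6.

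The X chromosome holds 276 of the 612 tRNA genes (45.1%). Of these, 29 were occupied (10.5%, 7.15 to 14.7), against 0.943% of X windows, and of the 336 autosomal genes 21 (6.25%, 3.91 to 9.40), against 0.871% of autosomal windows. The difference was 4.26 percentage points, with a 95% interval from −0.131 to 8.94. It was 3.36 points (−1.13 to 8.13) with replicate 1 and 1.68 points (−2.76 to 6.37) with replicate 2, and 9.06 points (1.13 to 16.8) in the pooled relaxed list. With the relaxed lists of the replicates it was 10.5 points (2.57 to 18.2) for replicate 1 and 5.38 points (−2.56 to 13.2) for replicate 2. X had the higher share in these 6 lists, with an interval above 0 in the pooled and the relaxed replicate 1 lists. The interval also lay above 0 with the stronger IDR peaks only (3.48 points, 0.22 to 7.19), with 1 locus per cluster (5.55, 0.271 to 11.4) and with peaks in promoter windows not counted (4.96, 0.938 to 9.34). Among the 143 sequences of 1 locus the difference was −0.530 points (−9.94 to 10.6). On autosomes the counts were 3 of 66 genes on chromosome I, 4 of 57 on II, 6 of 64 on III, 2 of 71 on IV and 6 of 78 on V. Peaks at tRNA genes made up 6.69% of the 359 X-linked IDR peaks and 1.23% of the 1539 autosomal ones, and X held 55.8% of tRNA peaks but 18.1% of the other IDR peaks.

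Occupied genes were found both in introns and between protein-coding genes. Of 319 genes outside protein-coding genes 29 were occupied (9.09%, 6.17 to 12.8), and of 283 within an intron 20 (7.07%, 4.37 to 10.7). Intergenic windows as such held an IDR summit in 1.42% of cases and intronic windows in 0.698%. The difference, intronic minus intergenic, was −2.02 points with an interval from −6.43 to 2.46, which does not show that the shares are alike. In the pooled list the order was the other way, 46.3% intronic and 45.1% intergenic. Of the 10 genes that overlapped an exon, 1 was occupied, C28G1.t1. Among intronic genes, those on the strand of their host were occupied at 12 of 160 and those on the opposite strand at 8 of 122. Split by chromosome, the share was 11.1% of 180 X intergenic genes, 8.42% of 95 X intronic, 6.47% of 139 autosomal intergenic and 6.38% of 188 autosomal intronic genes, with overlapping intervals.

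Neighbouring and lone tRNA genes had close shares. Of 236 genes with another within 1000 bp, 18 were occupied (7.63%, 4.58 to 11.8), and of 376 without, 32 (8.51%, 5.89 to 11.8), a difference of −0.884 points (−5.15 to 3.88). Among the 127 genes with a neighbour within 300 bp the count was 14 (interval 6.16 to 17.8%). There were 37 divergent neighbouring pairs that close, and 4 held an IDR summit, which lay between the genes in all 4. Those are the pairs M02F4.t2 and M02F4.t1, F46G11.t2 and F46G11.t1, C53C7.t2 and C53C7.t1, and W09D6.t2 and W09D6.t1. Of 17 convergent pairs 0 had an IDR summit, which allows a share of up to 17.6%, and of 14 pairs in the same direction 3 did. In the pooled list 51.4% of divergent, 47.1% of convergent and 71.4% of same-direction pairs held a summit.

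Occupied copies were spread over many families. Sequences with 1 locus were occupied at 13 of 143 genes (9.09%, 4.93 to 15.04), those with 2 to 9 copies at 12 of 152 (7.89%) and those with 10 or more at 25 of 317 (7.89%, 5.17 to 11.4). In the pooled list the shares were 34.3%, 48.0% and 49.8%. In all, 40 of the 200 distinct sequences had an occupied copy, among them 16 of the 20 families of 10 or more. The 317 genes of these 20 families were occupied at 7.89%, near the 8.17% of all tRNA genes. How many families their size alone would give was not computed. Reads that lie wholly inside identical copies cannot be assigned to a single copy, but the flanks were mostly unique. Of the occupied genes 38 of 50 (76%), and of the others 435 of 562 (77.4%), held no stretch of 50 bases that occurs once in the genome. Over the 200 bp flanks the median share of unique 50-base stretches was 100% in both groups. The authors' treatment of reads with several matches was not given in the sources used here, and its part in these values was not tested.

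The tRNA-Pro family of ZK899.t1 had the most occupied copies, 5 of 24, namely W09D6.t1, W09D6.t2, F46G11.t1, F46G11.t2 and ZK899.t1. The W09D6 genes shared a single peak, as did the F46G11 genes. A tRNA-Lys family of 25 had 3, at W09G10.t2, B0350.t1 and W03G11.t1. The tRNA-Glu family of M02F4.t2 and rte-1 had 2 of 20, the tRNA-Ala family of F34H10.t1 and F15G9.t2 had 2 of 15 and the tRNA-Lys family of K04C2.t3 and C33G3.t2 had 2 of 14. A tRNA-Tyr family of 6, with C02B4.t2 and R11.t1, also had 2. In each of these families most copies had no IDR summit, as had most tRNA genes of any kind (8.17% occupied). Identical genes thus differed in occupancy at the limit of the IDR list. In the pooled list the occupied copies of these 6 families, in the same order, were 13 of 24, 10 of 25, 12 of 20, 10 of 15, 5 of 14 and 2 of 6. The largest families with none in the IDR list were tRNA-Asp with 21 copies (which allows up to 14.3%), tRNA-Ile with 19 (up to 15.8%) and the tRNA-Thr family of C16C8.t2 with 15. In the pooled list 10, 8 and 8 of their copies were occupied. In the strongest regions of each replicate the tRNA-Ile family had 2 occupied copies, and the tRNA-Asp and tRNA-Thr families had 0. The largest family, tRNA-Gly with 29 copies, had 1 occupied copy, M02F4.t1, and 17 in the pooled list.

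By amino acid, no type stood clear of the rest in the IDR list. The reference names an amino acid for 607 of the 612 genes. The highest counts were for tRNA-Pro (7 of 42, 16.7%, 6.97 to 31.4), tRNA-Ala (5 of 34, 14.7%, 4.95 to 31.1) and tRNA-Lys (5 of 46, 10.9%, 3.62 to 23.6). Some of these genes shared a peak, so the distinct IDR peaks were 4, 4 and 5 in that order. The lowest were tRNA-Asp (0 of 27, which allows up to 11.1%) and tRNA-Val (1 of 31, 3.23%, 0.0816 to 16.7). The interval of every type with 10 or more genes held the 8.17% of all tRNA genes. In the pooled list the shares ran from 3 of 20 for tRNA-His (15%, 3.21 to 37.9) to 8 of 13 for tRNA-Cys (61.5%, 31.6 to 86.1), and the 45.8% of all genes lay above the interval of tRNA-His. K11H12.t1, which carries selenocysteine to a recoded stop codon, was occupied 44 bp on its 5′ side, with signals of 38.7 in replicate 1, 31.8 in replicate 2 and 71.5 in the IDR list. The tRNA-Trp gene sup-5, known for its amber suppressor alleles and lying in an intron of fli-1, had 29.0, 30.02 and 59.8.

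**Figure D5:**
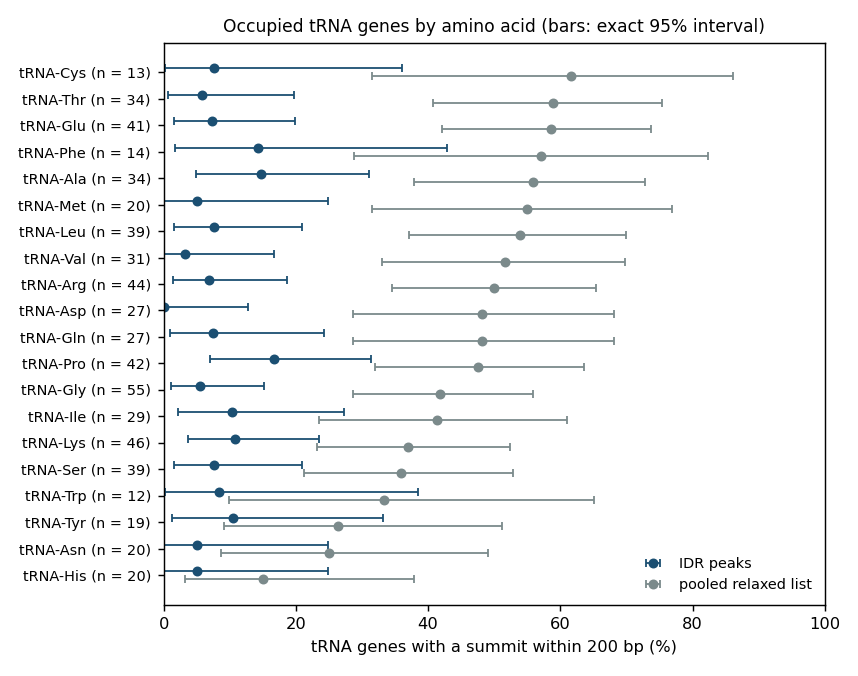
Share of tRNA genes with a summit within 200 bp (horizontal axis, percent) by amino acid (vertical axis, with the number of genes, types of 10 or more), in the IDR list and in the pooled relaxed list, with exact 95% intervals as bars. The intervals of the IDR list overlap across all types, from 0 of 27 for tRNA-Asp to 7 of 42 for tRNA-Pro.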

How the data were processed

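The authors, per the deposited records, called relaxed lists of peaks and background in each replicate and in the pooled alignments, and derived from these a thresholded IDR list. Aligner, caller and IDR cutoff were not given in the sources used here. Each region's signal is the caller's value as the authors deposited it, ranked within 1 list at a time. The authors' −log10 q values, as deposited, were read to describe the files and support no result.

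Lists in ce11 were set against Ensembl release 115 on WBcel235, the same assembly, and names and amino acids came from the RefSeq annotation (612 of 612 genes matched by identifier and span). The ce10 lists were not used, because the reference was of ce11. Distances ran from summit to gene span. An intronic gene lies whole in a protein-coding gene and touches no exon of it. Background windows of 472 bp tiled the genome. Shares have exact Clopper-Pearson 95% intervals, differences of shares Newcombe intervals, and a count of 0 is given with the share that 3 counts would make. No p-value was computed, since 1 group of 2 replicates has no contrast and genes are not replicates. The counting was checked on simulated data. Python 3.11.15, pandas 2.3.3, numpy 2.4.6, scipy 1.17.1 and statsmodels 0.14.6 were used.

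The members, lists and tests were chosen with earlier results of these data known. Named were the 15 occupied genes of highest signal, the 3 nearest to the 200 bp limit on each side, the 5 families with the most occupied copies (with a sixth that tied at 2) and the 3 largest with none, occupied genes with the summit in the gene and in no promoter window, and up to 6 genes held by the strongest regions of 1 replicate only. Other genes were named after their values were seen. The comparison of upstream shares, the loose A box letters, the order of the peaks on X and the orientation of pairs were also taken up after the data were seen.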

Additional observations from a re-analysis of the deposited data

How the results depend on the processing

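Of 89 alternative values for 9 results under 10 settings, 70 kept their direction and lay within the reported value's 95% interval or, for counts, within 1.5 times it. That interval is wide, and values within it moved up to several times in size: without replicate 1 X minus autosomes was 1.68 points and the inside share 9.62%, with sequences of 1 locus only intronic minus intergenic was −6.10 points, and with the pooled list clustered minus isolated was −3.43 points. With the stronger IDR peaks only, the occupied share was 4.25%, with 26 genes and 21 peaks, and clustered minus isolated turned to 2.05 points. With the pooled relaxed list the share was 45.8%, with 280 genes and 257 regions, X minus autosomes 9.06 points, the median percentile 76.0, the inside share 33.2% and the upstream share 46.8%, and intronic minus intergenic turned to 1.15 points. With sequences of 1 locus only there were 13 genes and 12 peaks, the upstream share was 53.8% and X minus autosomes turned to −0.530 points. With peaks in promoter windows not counted, intronic minus intergenic turned to 0.484 and clustered minus isolated to 0.131 points. With 1 replicate left out, clustered minus isolated ran from −0.302 to 2.03 points. The causes were not tested. X minus autosomes was above 0 in 9 of the 10 settings, and the upstream share, whose settings were added after the data were seen, was above 50% in 9 of 10.

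Depth is unknown and the control was not analysed here, so recovery at tRNA genes from other sources was not measured. Neighbouring genes shared peaks, and the intervals do not allow for that. No paired analysis was possible because there is 1 group.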
